A study of Mus musculus with 333 samples.

Results

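Astrocytes of the visual cortex were compared between adult mice and mice 12 days after birth (P12). The cells were chosen by their labels alone: every cell labelled Astrocyte in the adult visual cortex set, 10 cells, against every cell labelled Astrocyte in the P12 visual cortex set, 21 cells. These 31 cells were among 333 single cells of the series. All mice were wild type, and no treatment, strain, sex or exact adult age was given. Cells had been enriched by fluorescence-activated sorting, captured singly on a Fluidigm C1 chip and turned into poly(A) cDNA libraries, but the sorting gate was not given. Each stage was drawn from 5 mice, per the design text, and no label ties a cell to a mouse, so each age counts as 1 sample and no difference between the ages has a test. Values are therefore given per cell. The exact intervals cover only the counting of reads or the sampling of cells, not differences between mice.

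Astrocytes clear glutamate and potassium released by neurons, supply lactate and lipoprotein-borne cholesterol, contact blood vessels through their end-feet, and cover synapses. In the rodent cortex most are born around birth and mature over the following weeks, when they extend fine processes and take up their adult set of transporters and channels. Comparing P12 with adult cells therefore sets maturing astrocytes beside mature ones.

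The cells differed in how much was read from them. Adult cells held 387165 to 937205 reads counted to genes (median 594826.5) and P12 cells 374574 to 2315228 (median 1089545). After each cell was thinned to 350000 reads, 1170 to 1942 genes were detected in an adult cell (median 1493) and 1484 to 4103 in a P12 cell (median 3023). Only 2 P12 cells lay at or under the highest adult cell. The ages also came from separate runs of cell identifiers, 1295 to 1389 for adult and 1752 to 1828 for P12 cells, so age cannot be told apart from the run. Xist, the RNA of the inactive X chromosome, was read in 0 of 10 adult cells at equal depth (exact Clopper-Pearson 95% upper limit 30.8%) and in 14 of 21 P12 cells, while a Y-linked gene was read in 9 of 10 and 9 of 21. That limit treats cells as independent, although cells may share a mouse. Of the P12 cells 10 held Xist only, 5 a Y-linked gene only, 4 both and 2 neither. The reading of sex-linked genes thus differed between the ages, and the part of sex in the results was not tested.

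**Figure D1:**
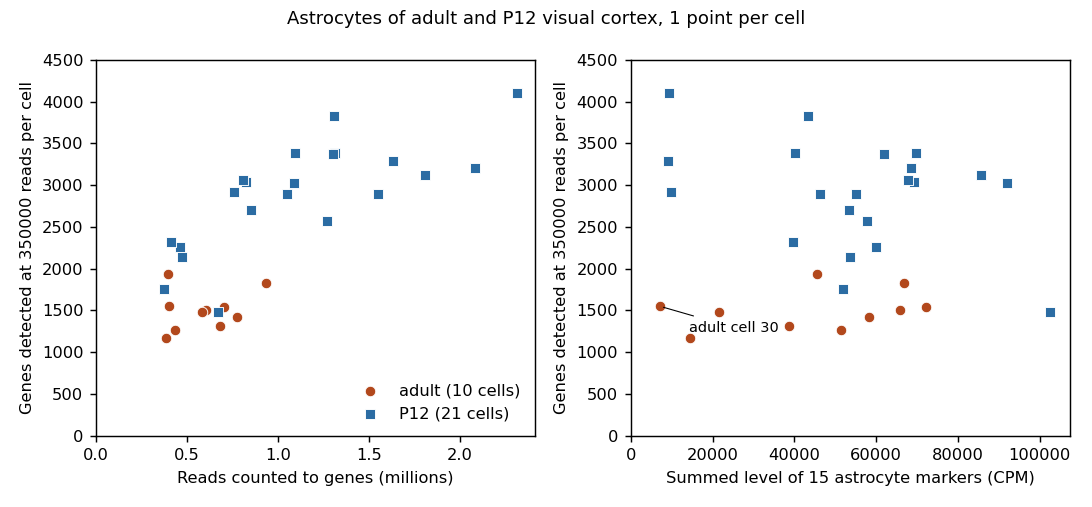
Genes detected in each cell after thinning to 350000 reads, against the reads counted to genes (left, units of 1e6) and against the summed level of 15 astrocyte markers (right, CPM, reads of a gene scaled to a library of equal size); each point is 1 cell. Adult cells lie between 1170 and 1942 genes and most P12 cells above them, and adult cell 30 has the lowest marker sum, 7143 CPM.

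The label Astrocyte was checked against 15 markers, among them the glutamate transporters Slc1a2 and Slc1a3, aldolase C (Aldoc) and the gap junction protein Gja1. Their summed level was 7143 to 72174 CPM in adult cells (median 48575) and 9038 to 102633 CPM in P12 cells (median 55084), so the arms overlapped. In 4 cells the sum was under 25% of the median of the 31 cells: adult cell 30 and P12 cells 4, 12 and 58. Adult cell 30 held 0 CPM of Aldoc and 2.50 CPM of Slc1a2 but 17078 CPM of 14 mural and vascular fibroblast markers, against at most 267 CPM in the other adult cells. Its Vtn was at 10454.5 CPM, Col1a2 at 3823 and Col1a1 at 1318, although Slc1a3 (4295 CPM) and Gja1 (2720 CPM) were read in it. Markers of another class reached 25% of that class's own median in 5 cells: adult cell 61 and P12 cells 12 and 58 for neurons, P12 cell 24 for microglia, and adult cells 26 and 61 for newly formed oligodendrocytes. The 12 endothelial markers summed to at most 285 CPM in any cell, to 21.2 CPM over the adult cells and to 1.49 CPM over the P12 cells.

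Reads were summed over the cells of each age and divided by the total, and the log2 ratio of adult over P12 was taken with 1 CPM added. Of 22074 genes in the table, 12331 had a read in the 31 cells and 8379 reached 10 CPM at either age and are called measured. A gene was called higher or lower in adult cells when it differed at least 2-fold and kept that fold whichever single cell was left out. Of the measured genes, 434 (5.18%) were called higher in adult cells and 3733 (44.6%) lower, with a median log2 ratio of -2.36. No gene separated the ages completely: for every measured gene some adult and P12 cells overlapped. A gene low at one age was measured only through the other, so these counts are a description. For that reason the level in single cells, and the summed level of all members of a list in each cell, which no filter touches, are given beside them.

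The excess of lower over higher genes depended on which genes and which P12 cells were used. Among 815 genes read in at least 50% of cells at equal depth (as the mean of both ages' shares, called broadly read here), 83 (10.2%) were called higher and 187 (22.9%) lower, and the median log2 ratio was 0.08. A gene unread at 1 age passes this filter only if every cell of the other age holds a read. Genes such as Cd9 and Cyp51 are therefore left out, so the filter by itself removes large differences. The 5 P12 cells with fewer than 2500 genes at equal depth, 1484 to 2314, were nearest to adult cells in this respect. Set against those 5 cells alone, 983 of 5903 measured genes (16.7%) were called higher in adult cells and 649 (11%) lower, with a median of 0.67. Of the 434 genes called higher against all P12 cells, 330 were also called higher against these 5. Of the 3733 called lower, 557 were called lower against these 5 and 39 were called the other way. Without the 4 cells with few astrocyte markers, 411 of 7842 measured genes (5.24%) were called higher and 3386 (43.2%) lower. Groups of genes below are given against all 21 P12 cells and against these 5, a comparison chosen after the data were seen. Their counts are to be read beside the shares of all measured genes. These were 5.18% higher and 44.6% lower against all P12 cells, and 16.7% and 11% against the 5. The number of cells was unequal too, 10 adult cells against 21 P12 cells or against 5. In both comparisons more genes were called higher at the age with more cells, and the part of cell number was not tested.

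**Figure D2:**
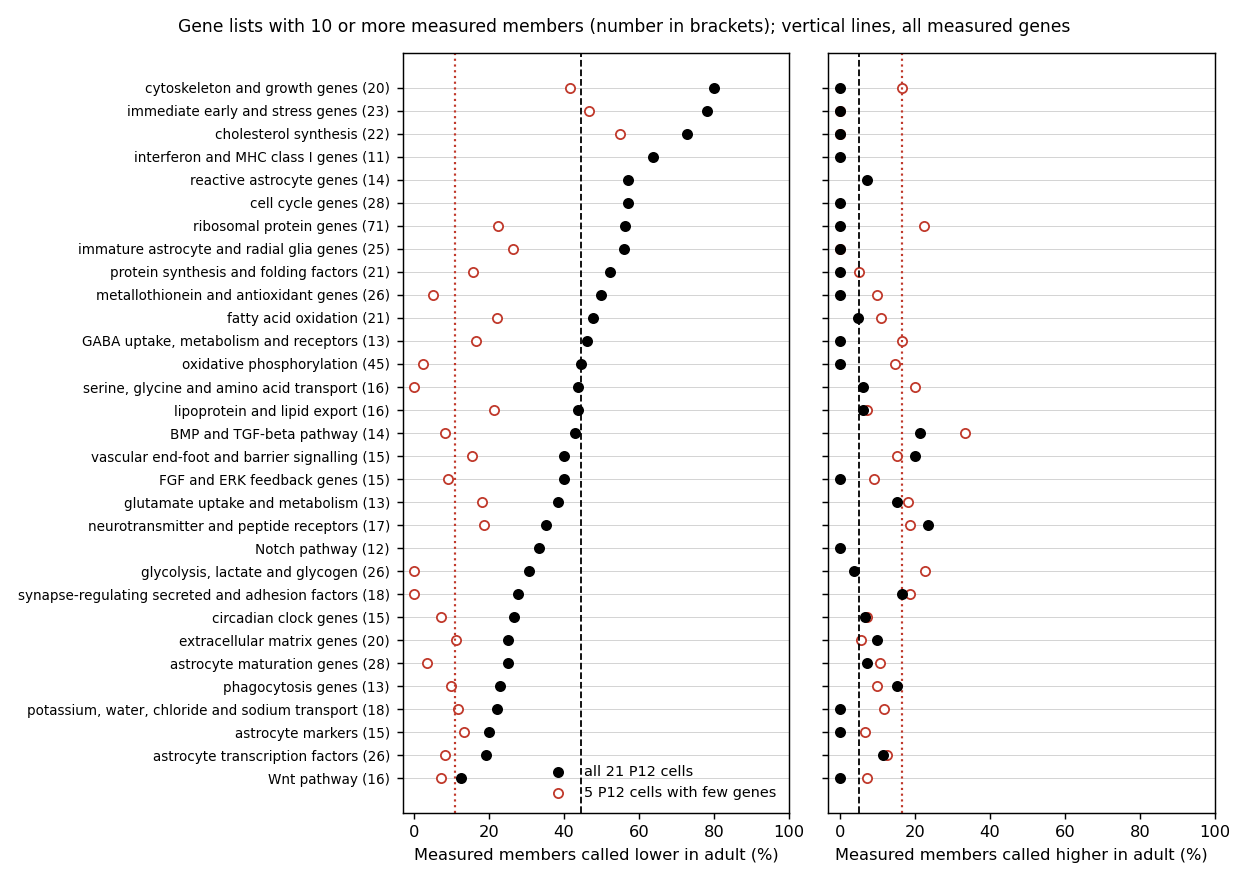
Share of the measured members of each gene list called lower (left) or higher (right) in adult cells, in percent; filled points, against all 21 P12 cells; open points, against the 5 P12 cells with few genes, shown where 10 or more members were measured; vertical lines, all measured genes (44.6% and 11% lower, 5.18% and 16.7% higher). Cytoskeleton, immediate early and cholesterol genes have the largest shares called lower among lists shown for both comparisons.

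Of the 15 marker genes 12 were not called, with a median log2 ratio of -0.35 over the list, and 3 were called lower. Slc1a2, the main glutamate transporter of astrocytes, ranged from 2.50 to 37686 CPM in adult cells (median 14203) and from 1796 to 33067 CPM in P12 cells (median 14168). The ranges overlapped over almost their full width, and the log2 ratio of the summed reads was 0.44 (0.20 to 0.54 over the cells left out in turn). Gja1 had medians of 4438 CPM in adult and 4872 CPM in P12 cells and a log2 ratio of 0.07. Aldoc had medians of 6004 and 7237 CPM and a log2 ratio of -0.03, but was called higher against the 5 P12 cells with few genes (log2 1.28). Slc1a3 had medians of 4794 and 14353 CPM and a log2 ratio of -0.61. The 3 markers called lower were Agt, Gfap and Atp1b2, and against the 5 cells 2 of 15 were called lower and 1 higher. Gfap, the intermediate filament of astrocytes, was 0 to 460 CPM in adult cells (median 0) and 0 to 3024 CPM in P12 cells (median 423), and its log2 ratio was -2.66. It was read in 3 of 10 adult and 14 of 21 P12 cells at equal depth, and stayed called lower against the 5 cells (-1.97). Agt, which encodes angiotensinogen, had no read in adult cells and 258 CPM over the P12 cells, at least 508-fold lower against a floor of 3 reads over the adult cells.

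Of 29 genes of astrocyte maturation, 28 were measured, 2 were called higher and 7 lower, and against the 5 cells 3 were called higher and 1 lower. The share called lower was under the 44.6% of all measured genes. The 2 that rose were Htra1, a secreted serine protease, and Ntsr2, a neurotensin receptor of astrocytes. Htra1 ranged from 46.3 to 6497 CPM in adult cells (median 1126) and from 0 to 2289 CPM in P12 cells (median 554). It was 3.31-fold higher in the summed reads (log2 1.73, 1.39 to 1.97 over the cells left out), and 6 of 10 adult cells lay above the P12 median. Ntsr2 had medians of 958 and 432 CPM and a log2 ratio of 1.54. Neither was called against the 5 P12 cells with few genes (0.83 and 0.01) or when each cell was weighted equally. Among the genes that fell were abundant secreted proteins. Clu (clusterin, a lipid-carrying chaperone) was 2.50 to 10312 CPM in adult cells (median 5316) and 0 to 39351 CPM in P12 cells (median 9405), with only 1 of 10 adult cells above the P12 median. Its log2 ratio of -1.28 was 0.07 against the 5 P12 cells. Sparcl1 (hevin, which promotes synapse formation) had medians of 1703 and 9391 CPM and a log2 ratio of -1.31. Cst3 (cystatin C, a protease inhibitor) had medians of 2266 and 7825 CPM and a log2 ratio of -1.45. The calls of Clu and Sparcl1 ended when the libraries were scaled by TMM (trimmed mean of M values) or median-of-ratios factors, and that of Cst3 under the second, and neither Sparcl1 (-1.18) nor Cst3 (-0.90) was called against the 5 cells. These factors move all log2 ratios by 0.21 and 0.60. Kcnj10 (Kir4.1, the potassium channel of astrocyte end-feet) fell against all P12 cells (log2 -2.56) and was called higher against the 5 (4.03); those 5 cells held 0 to 29.7 CPM. A single adult cell supplied 82.6% of its adult reads.

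Cholesterol synthesis genes were low in adult cells. The summed level of 22 genes of the pathway was 4.99 to 4548 CPM in adult cells (median 2025) and 887 to 13645 CPM in P12 cells (median 7356). None of the 10 adult cells reached the P12 median, and 11 of 21 P12 cells lay above every adult cell. All 22 genes were measured: 16 were called lower, 0 higher, and the median log2 ratio was -4.02. The 5 P12 cells with few genes were not low, at 4221 to 13369 CPM, and against them 11 of 20 measured genes were called lower and 0 higher. Glia make most of the cholesterol of the brain, and the pathway runs from HMG-CoA synthase (Hmgcs1) through squalene synthase (Fdft1) and squalene epoxidase (Sqle) to lanosterol demethylase (Cyp51) and the later sterol enzymes Nsdhl, Sc5d and Dhcr7.

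**Figure D3:**
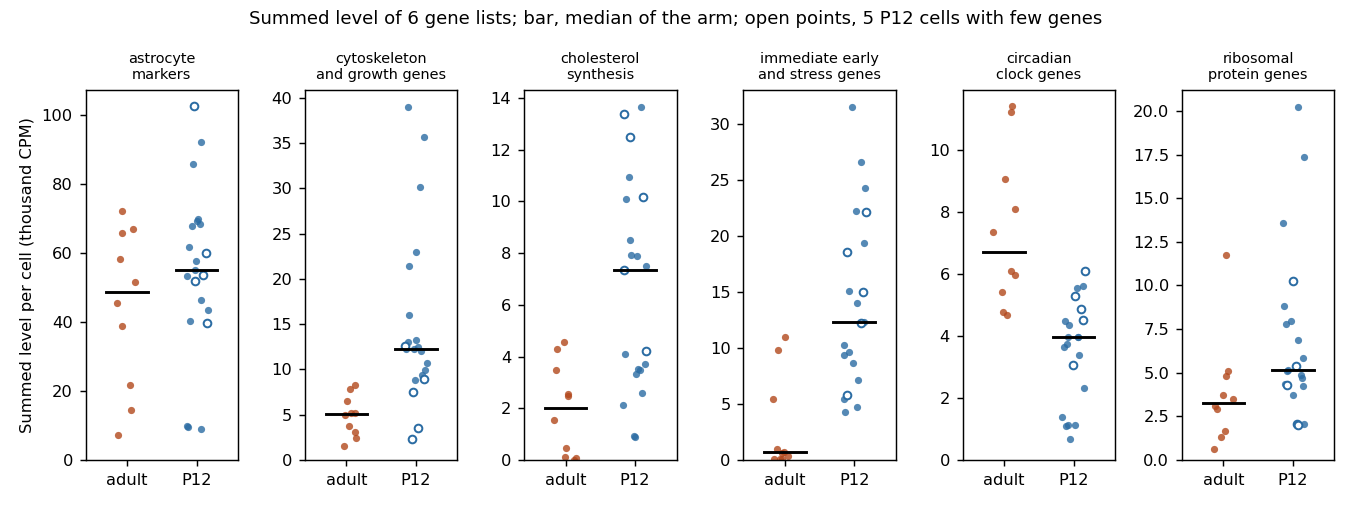
Summed level of the members of 6 gene lists in each cell (CPM, axis units of 1000; each panel has its own axis from 0); points are cells, black bars the median of the age, and open points the 5 P12 cells with few genes. Adult cells lie at or under the P12 median for cytoskeleton, cholesterol and immediate early genes, and above it for circadian clock genes; the marker sums overlap.

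Hmgcs1 was 0 to 357 CPM in adult cells (median 0) and 0 to 8341 CPM in P12 cells (median 735). No adult cell reached the P12 median, and the summed reads were 17.8-fold lower (log2 -4.14, -4.72 to -3.80 over the cells left out). Cyp51 had no read in any of the 10 adult cells and 0 to 4536 CPM in P12 cells (median 126), at least 954-fold lower against a floor of 3 reads. Nsdhl had 1 read in the adult cells together, 0.169 CPM (exact Poisson 95% interval 0.00429 to 0.944), and 431 CPM over the P12 cells, 17 of which held a read at equal depth. Sqle likewise had 1 adult read and 363 CPM over the P12 cells. Fdft1 had medians of 0 and 605 CPM (log2 -1.44), and its call ended under median-of-ratios scaling. All of Hmgcs1, Cyp51, Nsdhl, Sqle and Fdft1 were called lower against the 5 P12 cells too, with log2 ratios of -5.15, -10.39, -6.68, -6.47 and -2.27. Insig1, which holds the pathway's regulator in the endoplasmic reticulum, was not called and had medians of 194 and 174 CPM. Srebf1, a transcription factor of fatty acid synthesis from the same family, was called higher (302 against 88.9 CPM), but lost that call without the 4 cells with few astrocyte markers (0.83), and adult cell 30 held 38.6% of its adult reads.

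Because these genes moved together, their promoters were searched for the CCAAT box, the letters CCAAT on either strand, and for a sterol regulatory element, TCACNCCAC, in the 250 bases before and 50 after the transcription start (RefSeq, GRCm38.p6). Of 24 listed cholesterol genes, 17 had a promoter in the table. CCAAT was present in 16 of these 17, in 9 of 10 called lower and in 7 of 7 others, in 14 of 16 listed clock genes and in 41.1% of all 27025 gene promoters. TCACNCCAC was present in 1 of the 17, Hmgcs1, and in 1.44% of all. The 3 promoters are printed to show how the matches lie, 5′ to 3′ on the strand of the gene, with CCAAT, its reverse complement ATTGG and, in Hmgcs1, TCACCCCAC in capitals. They lie at chr5:4104648-4104947 on the minus strand for Cyp51, at chrX:72918271-72918570 on the plus strand for Nsdhl and at chr13:119690101-119690400 on the plus strand for Hmgcs1. Nsdhl and Hmgcs1 each held 4 CCAAT matches and Cyp51 held 1. The matches describe the sequence and are not binding sites.
Cyp51: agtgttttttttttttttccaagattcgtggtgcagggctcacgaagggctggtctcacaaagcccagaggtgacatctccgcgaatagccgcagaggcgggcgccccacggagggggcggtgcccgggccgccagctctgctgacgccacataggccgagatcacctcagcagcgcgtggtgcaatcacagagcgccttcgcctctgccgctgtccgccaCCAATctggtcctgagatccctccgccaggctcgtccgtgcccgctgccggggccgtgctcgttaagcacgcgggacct
Nsdhl: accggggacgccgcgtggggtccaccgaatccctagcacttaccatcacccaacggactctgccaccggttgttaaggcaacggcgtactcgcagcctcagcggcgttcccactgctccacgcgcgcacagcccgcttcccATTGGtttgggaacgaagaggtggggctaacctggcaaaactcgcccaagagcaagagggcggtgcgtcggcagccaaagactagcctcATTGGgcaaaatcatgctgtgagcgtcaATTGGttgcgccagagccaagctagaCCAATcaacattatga
Hmgcs1: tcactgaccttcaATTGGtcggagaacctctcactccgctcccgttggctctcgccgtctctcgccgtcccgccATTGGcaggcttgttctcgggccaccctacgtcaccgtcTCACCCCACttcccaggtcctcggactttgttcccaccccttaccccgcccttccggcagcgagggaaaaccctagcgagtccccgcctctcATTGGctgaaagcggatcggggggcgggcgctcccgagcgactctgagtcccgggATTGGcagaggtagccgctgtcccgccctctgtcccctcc

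Genes of lipid handling outside synthesis were called at shares near those of all measured genes, 5.18% higher and 44.6% lower. Of 20 lipoprotein and lipid export genes, 16 were measured, 1 (Srebf1) was called higher and 7 lower. Against the 5 cells 1 of 14 was higher and 3 lower, where 16.7% and 11% of all measured genes were. Npc2, which moves cholesterol out of lysosomes, had no adult read and 306 CPM over the P12 cells, at least 603-fold lower. Lcat, which esterifies cholesterol on lipoproteins, was at 2.71 and 293 CPM (log2 -6.31). Apoe, the main lipoprotein of astrocytes, was not called (log2 -0.64), with medians of 1466 CPM in adult and 2485 CPM in P12 cells. Abca1, the exporter that loads lipid onto Apoe, was not called either, at 1540 and 597 CPM.

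Immediate early and stress genes were low in adult cells. Their 29 genes summed to 69.1 to 11016 CPM in adult cells (median 691) and to 4282 to 31533 CPM in P12 cells (median 12301). None of the 10 adult cells reached the P12 median, and 12 P12 cells lay above every adult cell. The highest adult cell was cell 30. Of 23 measured genes 18 were called lower and 0 higher, with a median log2 ratio of -4.26, and against the 5 P12 cells with few genes, at 5777 to 22125 CPM, 7 of 15 were called lower and 0 higher. Immediate early genes are transcribed within minutes of a stimulus, including the handling of cells, and Fos and Jun encode the subunits of the AP-1 factor. Fos was 0 to 5890 CPM in adult cells (median 30.5) and 14.1 to 14517 CPM in P12 cells (median 2544). Its summed level was 7.36-fold lower (log2 -2.88), and 78.6% of the adult reads came from cell 30; without the 4 cells with few astrocyte markers the log2 ratio was -5.09. Klf6, a zinc finger factor induced by injury and growth signals, was 0 to 5.05 CPM in adult cells and 0 to 5068 CPM in P12 cells (median 579). Jun was read in 1 of 10 adult cells at equal depth and in 21 of 21 P12 cells, at 28.1 and 462 CPM. Hspa8, a constitutive heat shock protein, had medians of 16 and 2568 CPM, and 88.9% of its adult reads came from 1 cell. Egr1 was called lower against all P12 cells (log2 -1.56) but not against the 5 (-0.33) or under median-of-ratios scaling. Dusp1, a phosphatase of the same response, was not called, with medians of 40.9 and 56.2 CPM. The sources used here do not say how long either set of cells waited before capture.

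The genes of the growing cytoskeleton were lower in adult cells. Their 22 genes summed to 1508 to 8282 CPM in adult cells (median 5082) and 2363 to 39048 CPM in P12 cells (median 12302), and 18 of 21 P12 cells lay above every adult cell. The 3 highest P12 sums, 30208, 35639 and 39048 CPM, were those of cells 12, 4 and 58, which had few astrocyte markers, and 12 and 58 also held neuron markers; the next P12 cell was at 22928 CPM. Without the 4 cells with few astrocyte markers 11 of 18 measured genes were called lower and 0 higher. Of 20 measured genes 16 were called lower and 0 higher. The gap was narrower against the 5 P12 cells with few genes, which summed to 2363 to 12619 CPM: 5 of 12 measured genes were called lower and 2 higher. Marcks, a substrate of protein kinase C that binds actin, was 0 to 9.98 CPM in adult cells (median 0.534) and 0 to 3550 CPM in P12 cells (median 402). No adult cell reached the P12 median, and Marcks stayed called lower against the 5 cells (log2 -4.68), which themselves held 0 to 186 CPM (median 1.49). Tuba1a, the alpha-tubulin of growing neural cells, had medians of 0 and 1343 CPM and was not called against the 5 cells, and Tubb2b, a beta-tubulin of development, was at 0.508 and 399 CPM. Actb, the common cytoskeletal actin, was read in all 31 cells at equal depth and was not called (medians 2452 and 3808 CPM, log2 -1.11).

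Genes of immature astrocytes and radial glia, the precursors of both neurons and astrocytes, had 25 of 30 measured, 0 called higher and 14 lower. Of all measured genes 44.6% were called lower. Against the 5 cells 5 of 19 were lower and 0 higher, where 11% of all measured genes were lower. Vim (vimentin) had 1 adult read and 268 CPM over the P12 cells. It stayed called lower against the 5 P12 cells (log2 -5.30), which themselves held 0 to 216 CPM (median 0). Fabp7, a fatty acid binding protein of radial glia, had medians of 0 and 507 CPM (log2 -1.72) and was not called against the 5 (-0.34) or under median-of-ratios scaling. Ptprz1, a phosphatase that radial glia and astrocytes share, was not called, with medians of 2548 and 3097 CPM. Of 28 measured cell cycle genes 16 were called lower and 0 higher, and against the 5 P12 cells 3 of 9 were. Ccnd2, a G1 cyclin, fell from 782 to 15.9 CPM (log2 -5.53) and was called lower against the 5 as well (-2.60). The proliferation genes Mki67 and Top2a, at 231 and 280 CPM over the P12 cells, were not called, and P12 cell 4, one of those with few astrocyte markers, held 92.4% and 99.8% of those reads.

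Circadian clock genes stood higher in adult cells as a sum. The 17 genes found summed to 4663 to 11410 CPM in adult cells (median 6723) and 662 to 6107 CPM in P12 cells (median 3954). All 10 adult cells lay above the P12 median and 5 above every P12 cell. The sum was carried by few genes: of 15 measured, 1 was called higher and 4 lower, with a median log2 ratio of 0.66; against the 5 cells 1 of 14 was higher and 1 lower. Per3, one of the period repressors of the clock, was 17.5 to 8455 CPM in adult cells (median 2835) and 123 to 3565 CPM in P12 cells (median 583). Of the 10 adult cells 9 lay above the P12 median, and the exception was cell 30. Its summed reads were 4.75-fold higher (log2 2.25, 2.03 to 2.39 over the cells left out), and the call held under both other scalings, with cells weighted equally and without the 4 cells with few astrocyte markers. It did not hold against the 5 P12 cells with few genes, whose Per3 was 1085 to 3565 CPM (median 2870, log2 0.43). Rora and Rorb, nuclear receptors that activate Bmal1, were not called: Rora had medians of 91.6 and 1.21 CPM (log2 1.95, lowest 0.99 with 1 cell left out), and Rorb of 71.3 and 304 CPM. Rora was called higher under both other scalings and Rorb under median-of-ratios scaling. Bhlhe40 and Nr1d2, repressors of the clock, fell, at 33 and 458 CPM and at 8.81 and 106 CPM, each read in 1 adult cell at equal depth, and neither was called against the 5 P12 cells. The labels used here give no hour of collection.

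The Per3 promoter (chr4:151044616-151044915, minus strand, RefSeq, GRCm38.p6) is printed because Per3 was the clock gene called higher and because it holds a D-box, TTATGTAA, the element bound by the clock output factors Dbp and Tef. TTATGTAA, searched on both strands, occurred in 1 of 16 listed clock genes with a promoter and in 1.11% of all 27025. Per3 held 2 copies, in capitals.
Per3: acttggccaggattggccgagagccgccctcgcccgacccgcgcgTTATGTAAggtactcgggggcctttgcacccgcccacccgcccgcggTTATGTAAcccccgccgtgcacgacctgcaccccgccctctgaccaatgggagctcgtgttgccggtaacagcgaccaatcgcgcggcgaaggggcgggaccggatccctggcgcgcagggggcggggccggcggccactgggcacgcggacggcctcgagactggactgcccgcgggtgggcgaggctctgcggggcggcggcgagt

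Kidins220, a scaffold of neurotrophin and ephrin receptors, was 0 to 4999 CPM in adult cells (median 1991) and 0 to 2734 CPM in P12 cells (median 53.5). The summed level was 10.7-fold higher (log2 3.41, 3.12 to 3.75 over the cells left out), 8 of 10 adult cells lay above the P12 median, and the call held against the 5 P12 cells (2.23). Cadm1, a homophilic adhesion molecule found on astrocyte processes, had medians of 931 and 229 CPM (log2 2.17) and was 4.05 against the 5, whose cells lay between 2.67 and 229 CPM. Slc7a11, the cystine-glutamate exchanger of astrocytes, had medians of 1894 and 162 CPM. It was called higher against all P12 cells (log2 1.93) and against the 5 (2.39), but not without the 4 cells with few markers (1.28).

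**Figure D4:**
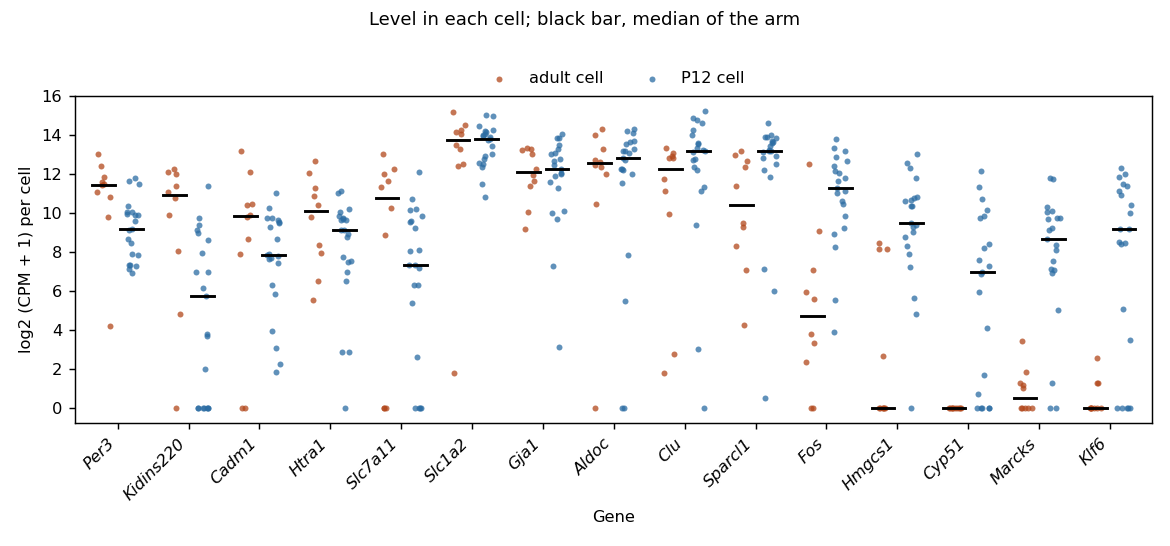
Level of 15 genes in each cell, as log2 of CPM plus 1; points are cells, adult in orange and P12 in blue, and black bars are the median of the age. Per3 and Kidins220 lie higher in adult cells, Slc1a2, Gja1 and Aldoc overlap, and Hmgcs1, Cyp51, Marcks and Klf6 lie at or under their P12 median in every adult cell; 2 of 10 adult cells are at 0 for Fos.

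Of 18 measured synapse-regulating and adhesion factors, 3 were called higher (Cadm1, Tgfb2 and Gpc5) and 5 lower, where 5.18% and 44.6% of all measured genes were. Against the 5 cells 3 of 16 were higher and 0 lower, where 16.7% and 11% of all were. Tgfb2, a ligand that acts on synapses and astrocyte maturation, was read in 3 of 10 adult and 8 of 21 P12 cells at equal depth, at 545 and 60.3 CPM, and held against the 5 P12 cells (5.87). Gpc5, a glypican of mature astrocytes, was at 492 and 112 CPM and was not called against the 5 (-0.13). Of 20 measured extracellular matrix genes 2 were called higher and 5 lower, and against the 5 cells 1 of 18 and 2. The lecticans, proteoglycans of the perisynaptic matrix, split: Bcan (brevican) had medians of 824 and 453 CPM (log2 1.53) and Ncan (neurocan) of 109 and 2333 CPM (log2 -1.28). The Bcan call ended without the 4 cells with few markers (1.37) and that of Ncan under both other scalings. Hapln1, a link protein that ties lecticans to hyaluronan, fell (medians 0 and 387 CPM), and so did Timp3, an inhibitor of matrix proteases (medians 0 and 474 CPM, log2 -5.32). Of 15 measured genes of end-feet and barrier signalling, 3 were called higher, namely Dmd (dystrophin), Lama2 (a laminin) and Vegfa, and 6 lower. Against the 5 cells 2 of 13 measured were called higher and 2 lower. Dmd had medians of 602 and 158 CPM, with 6 of 10 adult cells above the P12 median, and lost its call without the 4 cells. None of these 3 was called against the 5 P12 cells.

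Of 17 measured neurotransmitter and peptide receptor genes, 4 were called higher and 6 lower, where 5.18% and 44.6% of all measured genes were. Against the 5 cells 3 of 16 were higher and 3 lower, where 16.7% and 11% of all were. Grin2c, an NMDA receptor subunit, was at 298 and 7.42 CPM (log2 5.15), read in 5 of 10 adult and 3 of 21 P12 cells at equal depth, and it was not called against the 5 P12 cells (2.07), where 1 cell held 351 CPM. Plcd4, a phospholipase C, had medians of 249 and 21.9 CPM and was called against all P12 cells (2.16) and against the 5 (4.38). Ednrb, the endothelin receptor of astrocytes, fell: 0 to 2462 CPM in adult cells (median 28.8) against 1.23 to 6675 CPM in P12 cells (median 2648). No adult cell reached the P12 median, and the call held against the 5 cells (-2.85) and without the 4 cells with few markers (-2.88). Cnr1, the cannabinoid receptor, had 1 adult read and 466 CPM over the P12 cells, 8 of which held a read at equal depth. Gria2, Grm3, S1pr1 and Gpr37l1 were not called, with log2 ratios of 1.43, 0.21, -0.29 and -0.34, and Gria2 was called higher under both other scalings.

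Of 26 astrocyte transcription factors, all measured, 3 were called higher, 5 lower, and the median log2 ratio was -0.02. Of all measured genes 5.18% were called higher and 44.6% lower. Against the 5 cells 3 of 24 were higher and 2 lower, where 16.7% and 11% of all were. Sox2 (257 and 81.3 CPM), Sox6 (1009 and 281 CPM) and Id4 (259 and 33.4 CPM) were the 3 that rose, and Sox6 and Id4 were also called against the 5 P12 cells. Pax6, Nfix, Emx2 and Otx1, which pattern the embryonic cortex, were among the 5 that fell. Nfia and Sox9, which set the astrocyte fate, were near equal, with log2 ratios of 0.14 and -0.37. Atp1b2, a beta subunit that also acts as an adhesion molecule on glia, fell (medians 127 and 2717 CPM), also against the 5 P12 cells (-1.61), although not under TMM or median-of-ratios scaling.

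Metabolic and housekeeping lists are read against the 44.6% of all measured genes called lower, and the 11% against the 5 cells. Of 26 measured genes of glycolysis, lactate and glycogen, 1 was called higher and 8 lower; against the 5 cells 5 of 22 were higher and 0 lower. Of 45 measured oxidative phosphorylation genes 20 were called lower and 0 higher, a share near that of all measured genes, and against the 5 cells 1 of 41 was lower and 6 higher. Of 71 measured ribosomal protein genes 40 were called lower and 0 higher, and against the 5 cells 13 of 58 were lower and 13 higher. Many ribosomal protein genes have near-identical copies in the genome, so their counts are uncertain. Of 21 protein synthesis and folding genes 11 were called lower and 0 higher, and against the 5 cells 3 of 19 were lower and 1 higher. Canx (calnexin, a chaperone of the endoplasmic reticulum) was lower in both comparisons (log2 -2.66 and -2.83). Of 26 measured metallothionein and antioxidant genes 13 were called lower and 0 higher, a share near that of all measured genes, and against the 5 cells 1 of 20 was lower and 2 higher. Cat (catalase) was the one of these called lower against the 5 cells too, at 1.36 and 558 CPM over all cells. Those 5 cells held 0 to 4782 CPM of Cat, with a median of only 2.12 CPM. Mt1 and Mt3 were not called (log2 0.45 and 0.29). Glud1, which feeds glutamate into the citric acid cycle, fell in both comparisons (log2 -1.92 and -2.95).

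Among the signalling pathways given here, only BMP and TGF-beta genes had calls both ways against all 21 P12 cells. The Wnt, Notch, FGF and Sonic hedgehog genes called were all lower, where 44.6% of all measured genes were called lower. Of 16 measured Wnt pathway genes 0 were called higher and 2 lower, with a median log2 ratio of 0.74; against the 5 cells 1 of 14 was higher and 1 lower. For Notch genes 0 of 12 were called higher and 4 lower; Notch2 itself was 367 to 1108 CPM in adult cells and 0 to 1511 CPM in P12 cells, and all 10 adult cells lay above the P12 median of 217 CPM, but its log2 ratio was 0.76 and it was called only under median-of-ratios scaling. For the FGF pathway 0 of 15 were called higher and 6 lower, and for BMP and TGF-beta 3 of 14 and 6. Against the 5 cells 4 of 12 BMP and TGF-beta genes were higher and 1 lower, and Notch (9 measured) and FGF (11 measured) had 1 each way. Id2, a target of BMP signalling, had medians of 12.0 and 2385 CPM (log2 -1.23) and lost its call under both other scalings. Of 7 measured Sonic hedgehog genes 5 were called lower, among them the receptor Ptch1 (1.02 and 85.2 CPM). Against the 5 cells 1 of 3 measured was called lower and 0 higher. Of 13 measured phagocytosis genes 2 were called higher and 3 lower, and against the 5 cells 1 of 10 was called higher and 1 lower. Mertk, a receptor through which astrocytes engulf synapses, was at 2045 and 261 CPM, but 72.6% of its adult reads came from cell 21 and the medians were 81.8 and 71.6 CPM. Of 13 measured GABA genes 0 were called higher and 6 lower, a share near that of all measured genes, and against the 5 cells 2 of 12 were higher and 2 lower. Slc6a11, the GABA transporter of astrocytes, had medians of 0 and 280 CPM, and Abat, which breaks GABA down, had no adult read and 178 CPM over the P12 cells. Reactive astrocyte genes were little read, with 14 of 34 measured, 1 called higher and 8 lower. Against the 5 cells 8 were measured, 1 called higher and 3 lower.

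The genes with the largest ratios that were also read in more cells are named by rule, whether or not a list holds them. Of 15 higher, Plb1, a phospholipase, was read in 5 of 10 adult and 0 of 21 P12 cells at equal depth, at 135 CPM and no read, at least 1058-fold higher. Fah, the last enzyme of tyrosine breakdown, was read in 5 adult and 0 P12 cells, at 73.0 CPM and no read, at least 571-fold higher. The others were Mthfs, Mdga2, Zfp598, Rmst, Usp34, Wdr17, Wwc1, Lpar4, Wls, Dpp7, Tmem189, Cox11 and Grin2c, each read in 5 to 7 adult cells. Single cells supplied most adult reads of Mthfs (88.1%, cell 46), Zfp598 (80.2%, cell 42) and Rmst (80.1%, cell 46). Their adult medians were at most 3.45 CPM. Cell 46 also held 62.2% of the adult reads of Fah and 63% of those of Grin2c. In the rest of the higher genes, Wls apart, the top adult cell held 31.3% (Usp34) to 43.6% (Tmem189). Of the adult reads of Wls, a carrier of Wnt ligands, 68.1% came from cell 30, and its call ended without the 4 cells with few markers (0.75). Mdga2, which binds neuroligins and limits synapse formation, had medians of 213 and 0 CPM. Among the 15 lower, Cd9, a tetraspanin, had 1 adult read (0.169 CPM) and 0 to 2298 CPM in P12 cells (median 650), 17 of which held a read at equal depth. Suclg1, a subunit of succinyl-CoA ligase, and Rab11b, a GTPase of recycling endosomes, had no adult read and 363 and 460 CPM over the P12 cells. Slc38a2, an amino acid transporter, and Hsd17b12, a fatty acid elongation enzyme, were at 0 and 339 CPM and at 0.678 and 632 CPM. Fez1, Ghitm and Zwint completed the set with Klf6, Cyp51, Nsdhl, Sqle, Marcks, Npc2 and Xist.

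By difference in summed level, the 10 leading genes higher in adult cells were Qk, Dclk1, Per3, Gnao1, Utp14b, Kidins220, Mertk, Rbm25, Pcdh9 and Myo6. Qk, the RNA-binding protein quaking, was 132 to 11480 CPM in adult cells (median 5925) and 58 to 9164 CPM in P12 cells (median 2552), with 9 of 10 adult cells above the P12 median. Dclk1, a microtubule-associated kinase, had medians of 4026 and 1747 CPM. Against the 5 P12 cells with few genes neither Qk (0.17) nor Dclk1 (0.31) was called, and both calls ended when cells were weighted equally. That of Qk also ended without the 4 cells with few markers (1.09). Gnao1, a G protein subunit, had medians of 1304 and 359 CPM (log2 2.29). Pcdh9, a protocadherin, was at 1799 and 84.5 CPM and was called against the 5 cells as well (6.88). However, 59.3% of its adult reads came from cell 21, and the medians were 17.8 and 0.769 CPM. It was read in 5 of 10 adult and 11 of 21 P12 cells at equal depth. Rbm25, a splicing factor, was called in both comparisons too (1.84 and 1.70). Utp14b lies over Acsl3 in the annotation, so its reads cannot be assigned with certainty. On the lower side the 10 were Clu, Sparcl1, Cst3, Fos, Tspan7, Hspa8, Ednrb, Dpysl2, Cd81 and Canx. Tspan7, Dpysl2 and Cd81 lost their calls under median-of-ratios scaling, and none of these 3 was called against the 5 P12 cells (-0.39, -0.27 and -0.69). The genes nearest to no difference at 500 CPM or more were Sdha, Ndrg2, Gstm1, Aldoc, Sparc, Spag9, Pfn2, Ctnnd2, Gja1 and Atrx. Their log2 ratios of summed reads ran from -0.07 to 0.07, but single adult cells carried some of them. Cell 42 held 96% of the adult reads of Sdha, whose medians were 0 and 133 CPM (lowest log2 -4.38 with a cell left out). Cell 39 held 78.2% for Pfn2 (medians 0 and 104 CPM) and cell 31 57.2% for Sparc (2.09 and 71.6 CPM). In the other genes the top adult cell held 25.5% (Gja1) to 45.9% (Spag9). Ndrg2, an astrocyte protein of the growth-arrest family, had medians of 1496 and 1352 CPM. Against the 5 P12 cells Ndrg2, Sparc and Aldoc were called higher (2.38, 4.05 and 1.28).

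The genes that differed also differed in length. Of the broadly read genes called higher in adult cells, the median span in the genome was 86.6 kb (83 genes), against 22.8 kb for those called lower (176 of 187 with a span) and 32.7 kb for all. Split into 5 equal bins by span, the shortest (0.95 to 8.73 kb) had a median log2 ratio of -0.45, with 9 of 157 genes called higher and 54 lower. The longest (120 to 2390 kb) had a median of 0.79, with 31 of 157 called higher and 14 lower. The 3 bins between had medians of 0.24, -0.10 and 0.09, so the difference lay at the ends. Over all measured genes the medians were 40 kb for higher, 23.7 kb for lower and 27.4 kb for all.

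**Figure D5:**
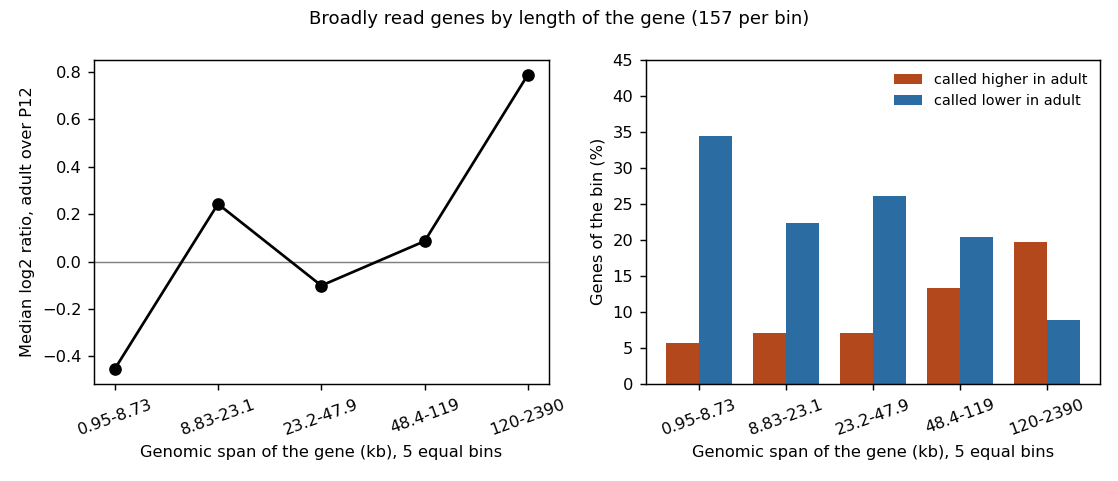
Broadly read genes in 5 bins of 157 by span in the genome (kb, RefSeq, GRCm38.p6): median log2 ratio of adult over P12 (left) and percent of the bin called higher (orange) or lower (blue) in adult cells (right, axis from 0). The longest genes have a median of 0.79 and 31 called higher, the shortest a median of -0.45 and 54 called lower.

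The same comparison was made in the other cell types of these sets, which come from the same runs of cell identifiers. Microglia (10 adult cells after 2 near-identical libraries were counted as 1, and 18 P12 cells) had 483 of 6851 measured genes called higher (7.05%) and 1860 lower (27.1%), with a median log2 ratio of -0.71. Endothelial cells (23 adult and 7 P12) had 1453 of 7167 called higher (20.3%) and 837 lower (11.7%), with a median of 0.39. Without thinning, adult cells of both types held fewer genes, with medians of 1973 against 2427.5 in microglia (11 adult libraries) and 1759 against 2920 in endothelial cells. Of genes measured in both types, 31 were called higher in astrocytes and microglia, 12.4% of the astrocyte and 8.52% of the microglial genes called higher, and 728 were called lower in both, 29.2% and 49.9%. Of all genes measured in both types 6.93% were called higher and 27.8% lower in microglia, so the 29.2% shared among lower genes is near the background. With endothelial cells 82 were shared among the higher genes (30.5% and 7.35%) and 354 among the lower (13.6% and 53.6%), where 20.5% and 12.1% of all genes measured in both were called higher and lower in endothelial cells. Per3 was called lower in adult microglia (log2 -2.55) and not called in endothelial cells (-0.82). Fos did not pass the call in either type (-0.23 and 0.88), nor did Marcks (-0.37 and -1.11) or Klf6 (-1.02 and 0.70). Cyp51 was not called in microglia (2.52) and was called lower in endothelial cells (-4.14). Among the other genes with the largest ratios, Plb1 was called higher in both types (4.51 and 5.27). Xist was called lower in both (-8.46 and -8.15). Zfp598, Lpar4 and Cox11 were called higher in endothelial cells, and Hsd17b12, Zwint and Slc38a2 lower in microglia. The opposite way to astrocytes, Wls (-4.97) and Dpp7 (-6.45) were called lower in microglia and Cd9 (1.83) higher. The rest of that set were called in neither type. In both types, too, more genes were called higher at the age with more cells, P12 for microglia and adult for endothelial cells. Neither the part of cell number nor the differences between cell types were tested.

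Astrocytes of the other sets give the levels a frame. Over 19 cells of P12 hippocampus and 16 of P12 thalamus, Cyp51 was at 350 and 224 CPM, Cd9 at 726 and 980, Klf6 at 1045 and 840, Marcks at 1027 and 2166, and Fos at 4512 and 2842 CPM. In adult visual cortex cells the first 4 were at 0, 0.169, 0.678 and 1.36 CPM and Fos at 509 CPM. Per3 was at 1077 CPM in P12 hippocampus and 1768 in P12 thalamus, between P12 visual cortex (641) and adult (3048), and at 188 CPM in the 17 astrocytes of embryonic day 18.5 titled mThal. Clu was at 8317 and 8352 CPM in the P12 sets and 2368 CPM in the embryonic one, so adult visual cortex cells (5294 CPM) lay between embryonic and P12 values. Plb1 was at 3.63, 2.20 and 0 CPM in hippocampus, thalamus and mThal, and Grin2c at 1.44, 1.56 and 0 CPM, against 135 and 298 CPM in adult visual cortex cells. Mthfs and Mdga2 were at most at 39.7 and 53.2 CPM, against 214 and 521 CPM. Other genes higher by rule were not low in every younger set. Fah was at 78.9 CPM in thalamus and 171 in mThal, against 73.0 in adult cells, and Rmst at 86.8 in mThal, against 90.5. In thalamus Lpar4 was at 191 CPM and Wls at 109, against 53.2 and 131 in adult cells.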

How the data were processed

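The authors deposited counts of reads per gene for each single cell. Reads were aligned with STAR to mm10 and counted with HTSeq 0.6.0, per the submitters' processing notes. The files hold no molecular identifiers, so PCR copies count as reads. Exact Poisson 95% intervals for sums of reads cover counting error only. Clopper-Pearson 95% intervals for shares of cells treat cells as independent, although cells may share a mouse. The arms held 5903562 (adult) and 23444415 (P12) reads.

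Counts were summed over the cells of each age and scaled by the arm's total to 1e6 (CPM). With each age counted as 1 sample no edgeR, DESeq2 or other test of the difference was run; edgeR 4.0.16 and DESeq2 1.42.0 (R 4.3.3) gave scaling factors only. Other values came from Python 3.11.15 with numpy 2.4.6, pandas 2.3.3 and scipy 1.17.1, with scripts tested on simulated data. Thinning used 350000 reads per cell. Besides list members, genes were named by rule: up to 15 called genes each way with the largest ratio among those with at least 50 CPM and a read in at least 50% of cells of the higher arm, and a share of cells at least 30 points above the other; the 10 called genes each way with the largest difference in CPM; and the 10 nearest to no difference with at least 500 CPM at both ages. Ribosomal protein and predicted genes were kept out. The cells and gene lists were chosen with earlier results of these data known. The comparisons with few-gene P12 cells, without low-marker cells and over broadly read genes were added after the data were seen. Some results are not reported here.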

Additional observations from a re-analysis of the deposited data

Results flagged for a closer look

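Of 58 quantities tested over the 10 adult cells, 11 had a highest or lowest cell whose gap to the next exceeded Dixon's 95% critical value for 10 values, which chance gives in about 1 of 20 for normally distributed values. Marker sums were tested as CPM and can hold many values of 0, and the genes were chosen from these data. That rate need not hold for them, so the flags are a description. Adult cell 30 stood apart in 8 of them. It held 1013 CPM of microglia markers, 285 CPM of endothelial markers and 17078 CPM of mural and vascular fibroblast markers, where the next cells held 228, 5.13 and 267 CPM. As log2 of CPM plus 1, it had the highest Marcks, 3.46, and the lowest Qk, 7.06, Per3, 4.21, Dclk1, 0, and Aldoc, 0. Adult cell 61 held 4706 CPM of neuron markers, where the next cell held 461 CPM. Adult cell 44 held 624 CPM of ependymal markers, where every other adult cell held none, and 1452 CPM of red blood cell genes, where the next held 281 CPM.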

How the results depend on the processing

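The count of genes lower in adult cells and the median depended most on which genes and P12 cells were used. Higher genes numbered 83 among broadly read genes and 983 against the 5 P12 cells with few genes. Lower genes numbered 187 and 649 in these comparisons, and 2095 with a minimum of 50 CPM. The median log2 ratio was 0.075 and 0.67 in them, both of the opposite sign, and -0.84 with the 50 CPM minimum, -1.31 with none, -1.69 under median-of-ratios scaling and -1.73 with 5 CPM added. The causes were not tested. Leaving out 1 cell at a time gave 383 to 450 higher genes, 3532 to 3984 lower genes and medians of -3.07 to -2.19. The list median changed sign in 9 of 35 lists among broadly read genes and in 11 of 44 against the 5 cells. Some of these medians rested on few members. Among broadly read genes the antioxidant median (0.29) covered 10 of 26 measured members, and the Sonic hedgehog one (0.88) was Gli3 alone, of 7. Against the 5 cells the reactive astrocyte median (1.67) covered 8 members and the interferon one (2.23) covered 5. Against all P12 cells these 2 lists had 14 and 11 measured members. Wwc1 (-0.030), Tmem189 (-1.23) and Clu (0.071) changed sign against the 5 cells. No paired analysis was possible because the labels neither name the mouse behind a cell nor pair cells across ages. Folds of genes with no adult read are bounds against 3 reads over the adult cells, 0.508 CPM.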
